A study of Homo sapiens with 2 samples.

Results

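The loci of 10 transcription factors that specify lung and airway epithelium were read in the open chromatin of B2B cells. The genes were listed by name and not by a threshold on a measured value, with earlier results of these data known. They are NKX2-1, FOXA1, FOXA2, FOXJ1, SOX2, SOX9, TP63, GRHL2, ELF3 and GATA6, or 10 of the 20033 protein-coding genes in the annotation. The assay was ATAC-seq. It uses the Tn5 transposase, which cuts DNA that is not wrapped in nucleosomes and leaves sequencing adapters there. B2B is BEAS-2B, an immortalized and non-cancerous line of human bronchial epithelial cells, and it was profiled with wild-type genotype and no treatment in 2 biological replicates. With 1 condition there was nothing to test between groups, and all values below are descriptions. B2B is a single established line, so the replicates do not sample different donors.

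Each of these factors marks a step of airway development or a cell type of the adult airway. NKX2-1 is the earliest marker of lung fate, and FOXA1, FOXA2 and GATA6 are foregut endoderm factors that act beside it. SOX2 marks the proximal airway progenitors and SOX9 the distal tip progenitors of the branching lung. TP63 defines basal cells, the stem cells of the bronchial epithelium, and FOXJ1 drives the program of motile cilia in multiciliated cells. GRHL2 and ELF3 are epithelial factors that maintain cell junctions and secretory differentiation. Accessible promoters and enhancers are a hallmark of genes that can be transcribed, but an open promoter can also belong to a poised gene that is not transcribed.

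Peaks were read in a window that reaches 100 kb beyond either end of each gene. A region is a stretch of overlapping peaks, and it counts as shared where it holds a peak of each replicate. Fold enrichment is the number of fragments at the summit over the local background, each with 1 added. In these windows, which span 2514 kb in all, lay 35 peaks of replicate 1 and 38 peaks of replicate 2, or 0.122% and 0.105% of the lists. They merged into 42 regions, of which 29 were shared (69.0%, against 67.4% of all regions). Replicate 1 alone held 4 regions and replicate 2 alone held 9. The fewest fragments at the summit of any listed peak were 16 (replicate 1) and 13 (replicate 2). A TSS without a peak was thus below detection at this depth, and it was not shown to be closed.

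The label of a bronchial epithelial cell was set against marker genes. Of 10 epithelial markers, 1 (KRT18) had a peak within 1 kb of its canonical transcription start site (TSS) in both replicates, and CDH1, EPCAM, KRT5 and KRT14 had none in either. Of 10 mesenchymal markers 7 had a peak there in both replicates, VIM, FN1 and CDH2 among them, while 52.2% of all protein-coding genes did. COL1A2 and COL3A1 had none there in either replicate, and THY1 had one in replicate 2 alone (4.30). Most of the epithelial markers thus had no detected peak at the canonical TSS. The calls were 1 of 10 in replicate 1 and 2 of 10 in replicate 2. The second was KRT8, at a fold enrichment of 5.89, and over all its annotated TSSs KRT8 had a peak in both replicates. With any annotated TSS read, 2 of 10 epithelial and 8 of 10 mesenchymal markers had a peak in both replicates. Of all protein-coding genes 56.1% did. These calls do not bear out the label of an epithelial cell, but a missing peak was not shown to be a closed promoter. The median count of CpG dinucleotides within 500 bp of the canonical TSS was 41 for the epithelial markers. It was 43.5 for the mesenchymal markers and 66 for all protein-coding genes.

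The 10 factors split in these cells. A peak lay within 1 kb of an annotated TSS in both replicates for 6 of them, NKX2-1, FOXA1, FOXJ1, SOX9, ELF3 and GATA6, which compares with 56.1% of all protein-coding genes called in the same way (57.1% by replicate 1 and 62.1% by replicate 2). FOXA2, SOX2, TP63 and GRHL2 had no TSS peak in either replicate. The calls were the same in replicate 1 and replicate 2 for all 10 genes. At the canonical TSS the count was 5 of 10, since the peak at ELF3 lay at an upstream TSS, and over all protein-coding genes it was 52.2% (53.2% by replicate 1 and 57.9% by replicate 2). Of the 38 annotated TSS positions of these genes, 13 had a peak within 1 kb in each replicate. The share of factors with a TSS peak was thus near that of protein-coding genes at large. A shared distal region without a TSS peak was found for TP63 and GRHL2, as for 35.1% of protein-coding genes.

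**Figure D1:**
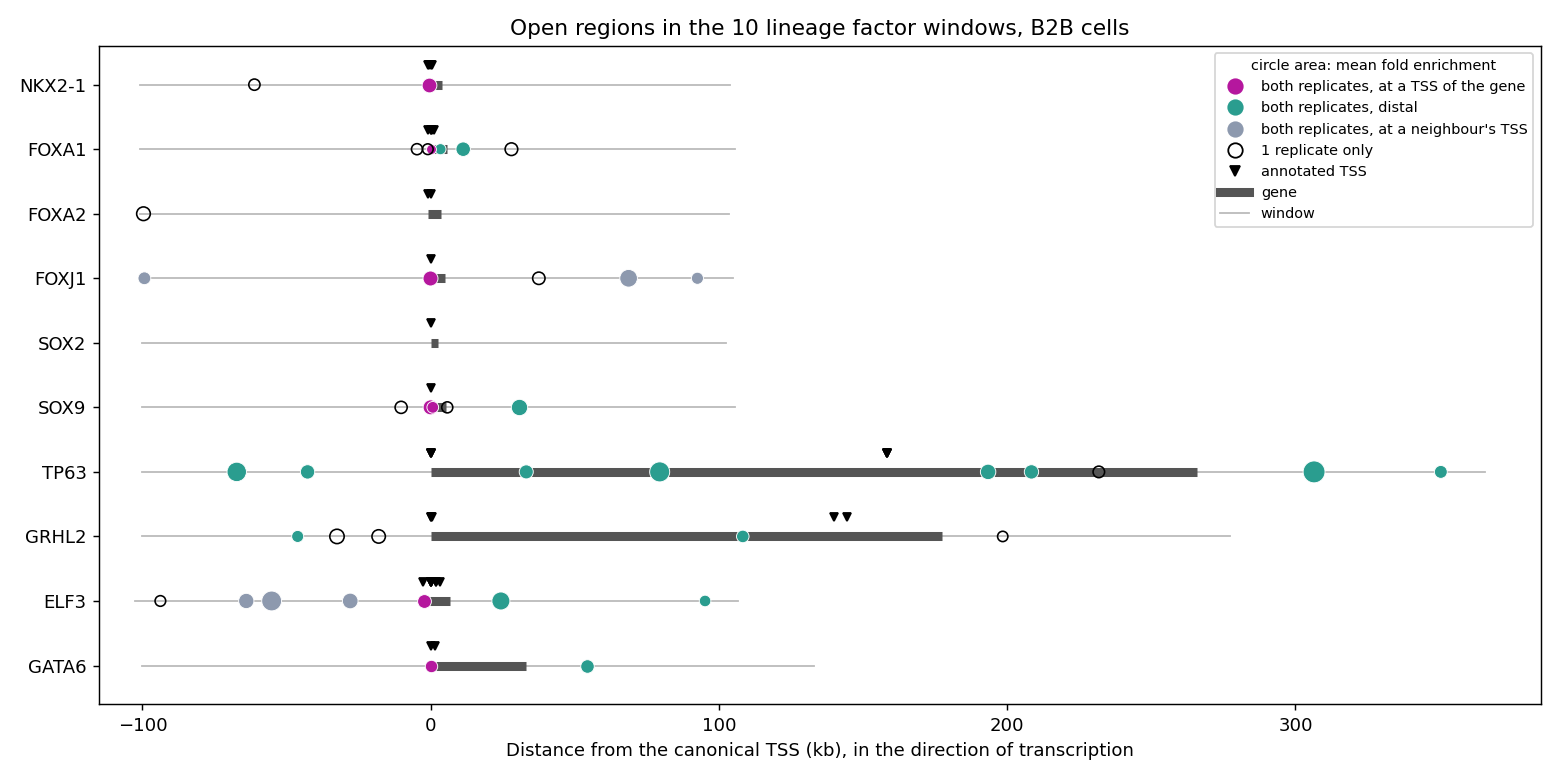
Regions in the window of each factor, by distance of the summit from the canonical TSS in kb, in the direction of transcription; circle area is the mean fold enrichment, filled circles are shared regions and open circles are found in 1 replicate. The 10 windows hold 29 shared regions, with none for SOX2 and FOXA2 and 8 for TP63.

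NKX2-1, on the minus strand of chromosome 14 from 36516392 to 36521149 (hg38), had a peak just upstream of its canonical TSS. The shared region ran from 36520609 to 36520877, and its summit lay 0.525 kb upstream of the canonical TSS, 0.192 kb downstream of the nearest alternative TSS. Its fold enrichment was 6.93 and 7.93 (replicates 1 and 2, the order kept for pairs of values from here on), or 7.43 ± 0.707 (SD, n = 2), with 39 and 34 fragments at the summit. The replicates were close, and 38.5% and 38.3% of all promoter peaks in these lists were weaker. The region also lies in the first exon of SFTA3, a neighbour that starts beside NKX2-1, so the peak cannot be assigned to either gene. No other shared region lay in the window of 205 kb. Downstream of the gene the nearest peak was 146 kb away in both replicates. A second region, 61.2 kb upstream in an exon of NKX2-8, was in replicate 2 alone with a fold enrichment of 4.30. The accessible DNA found in both replicates at this locus was thus the promoter alone, and 8.82% of all protein-coding genes had fewer shared regions in their window.

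The FOXA genes encode pioneer factors of the forkhead family, which can bind their sites on nucleosomes. FOXA1, on the minus strand of chromosome 14 from 37589552 to 37596059, had the lowest mean fold enrichment at a TSS among the 6 factors with a peak there. Its TSS region ran from 37594854 to 37595369 over the first exon, at 3.47 and 3.17, or 3.32 ± 0.217 (SD, n = 2). In replicate 1 alone the value at GATA6, 3.29, was lower. The peaks of the 2 replicates overlapped by only 9 bases, with summits 161 bp apart, and with an overlap of 50% of each peak required the region was no longer shared. A further peak, 1.01 kb upstream, was in replicate 1 alone at 3.90. By fragments the FOXA1 TSS was nearer to the others. Its summit had 34 and 28 fragments, against 39 and 34 at NKX2-1, and the local background there was 9.08 and 8.16 fragments against 4.77 and 3.41 at NKX2-1. Fold enrichment divides by that background, and over the lowest background of each list the same summits would stand at 6.06 and 6.57. The TSS of TTC6, on the other strand, lies within 1 kb of the region, and the peaks cannot be assigned to either gene.

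FOXA1 had more accessible DNA around it than its TSS alone. A shared region in its last exon, 3.38 kb downstream of the TSS, had a fold enrichment of 4.81 and 3.63. Another lay beyond the end of the gene, 11.3 kb downstream of the TSS, at 7.80 and 6.50. Its fold enrichment was the highest of the window in either replicate. By fragments it was close to the region in the last exon, with 44 and 32 against 44 and 31. The local background in the last exon was raised, at 8.35 and 7.81 fragments. The bases at its summit are shown because they are rich in CpG dinucleotides, which are in capitals, 25 in 201 bases, although the region lies away from any annotated TSS. At the summit in the last exon there were 24 CpG in 201 bases.
FOXA1 downstream region, chr14:37583891-37584091, plus strand: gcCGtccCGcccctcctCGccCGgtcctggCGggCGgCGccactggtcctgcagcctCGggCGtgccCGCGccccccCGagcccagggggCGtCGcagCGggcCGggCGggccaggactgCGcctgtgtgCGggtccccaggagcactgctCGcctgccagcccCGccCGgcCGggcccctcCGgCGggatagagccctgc
All 3 shared regions of FOXA1 were thus CpG-dense, with a GC content of 79.1% to 83.1%, while the median was 50.2% for all shared regions away from protein-coding TSSs and 68.7% for those at them. Replicate 2 alone had a peak 28.0 kb downstream in the gene body of MIPOL1, at 5.44, and replicate 1 alone had a peak 4.77 kb upstream, at 4.16.

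FOXA2, its close relative on the minus strand of chromosome 20 from 22580998 to 22585455, had no peak at either of its 2 TSS positions. The nearest peak of replicate 1 lay 102 kb upstream of the canonical TSS, outside the window. In replicate 2 it lay 99.6 kb upstream, within intron 2 of the noncoding gene LINC01747, with a fold enrichment of 6.34 and 27 fragments. The window thus had no shared region, as had 8.82% of all protein-coding windows. The FOXA2 promoter is not poor in CpG. It holds 81 CpG within 500 bp of the TSS, and with all protein-coding genes cut into 10 groups of equal size by that count, 71.8% of those in its group had a promoter peak in both replicates.

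GATA6 is a zinc finger factor of the foregut endoderm (chromosome 18, plus strand, 22169589 to 22202528). Its TSS region, from 22169403 to 22169683, was uneven between replicates. Its fold enrichment stood at 3.29 and 7.25, or 5.27 ± 2.80 (SD, n = 2), with 18 and 31 fragments at the summit. In replicate 1 this was close to the limit of 16 fragments, and 99.6% of that list's peaks were above it in fragments. The presence of the peak in both replicates was lost at a −log10 q of at least 5, where only replicate 2 kept it. The position was shared, since the peaks overlapped over 248 bp, or 91.5% of the longer peak. The bases upstream of the TSS within 100 bp of the summit are shown with CpG in capitals, and a region 54.3 kb downstream of the TSS, past the end of the gene, is shown with the AP-1 letters TGAGTCA in capitals, here on the minus strand.
GATA6 upstream of the TSS, chr18:22169449-22169588, plus strand: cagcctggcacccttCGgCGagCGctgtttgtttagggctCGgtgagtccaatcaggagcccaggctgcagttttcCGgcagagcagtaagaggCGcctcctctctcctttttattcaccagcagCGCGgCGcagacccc
GATA6 downstream region, chr18:22223746-22223946, plus strand: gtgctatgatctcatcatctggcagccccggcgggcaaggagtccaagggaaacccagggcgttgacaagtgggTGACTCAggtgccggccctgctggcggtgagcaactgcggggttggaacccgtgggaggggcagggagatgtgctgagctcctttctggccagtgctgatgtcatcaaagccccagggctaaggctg
The downstream region stood at 5.02 and 7.48, or 6.25 ± 1.73 (SD, n = 2). It was above the promoter in both replicates, by a margin in replicate 2 (7.48 against 7.25) that was far smaller than the gap between the replicates. GATA6-AS1, a noncoding gene, also starts within 1 kb of the promoter peak.

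FOXJ1 lies on the minus strand of chromosome 17 from 76136333 to 76141245 and has 1 annotated TSS. The TSS region, from 76141205 to 76141535, stood at 6.24 and 9.06, or 7.65 ± 2.00 (SD, n = 2), with 35 and 39 fragments. The peaks of the replicates had 290 bases in common and summits 14 bp apart. The summit lay 0.113 kb upstream of the TSS, with 15 CpG in the 201 bases around it. The other 3 shared regions of the FOXJ1 window lay at TSSs of neighbouring genes. They were at SRP68 and ZACN (9.01 and 12.2), at a second TSS within SRP68 (4.33 and 5.66) and at RNF157 (4.33 and 6.80). No shared region was thus found away from promoters. RNF157-AS1, a noncoding gene that starts beside FOXJ1 and runs over this region, so the peak cannot be assigned to either gene.

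SOX2 and SOX9 are high mobility group factors of the same family, with opposed domains along the branching airway, and only SOX9 had a peak. SOX2 (chromosome 3, plus strand, 181711925 to 181714436) had no peak of either replicate in its window of 203 kb. The nearest peak lay 722 kb upstream of its TSS in both replicates, and the nearest on the other side lay 907 kb downstream. A TSS that far or farther from any peak was found for 0.928% of protein-coding genes in replicate 1 and 0.774% in replicate 2. The SOX2 promoter holds 64 CpG within 500 bp, and 68.2% of genes in its CpG group had a promoter peak. NKX2-1, which had a promoter peak, lies in the same group with 61 CpG.

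SOX9 (chromosome 17, plus strand, 72121020 to 72126416) had 2 shared regions at its TSS. The first ran from 72120619 to 72121311 with 78 and 59 fragments at its summit. In both replicates these were more fragments than at the TSS region of any other factor, where the highest counts were 39 and 39. By fold enrichment the same region, at 8.42 and 6.76, was above FOXJ1 (6.24 and 9.06) and NKX2-1 (6.93 and 7.93) in replicate 1 and below both in replicate 2. The order of the factors thus depends on which measure is read. The local background at SOX9 was 8.38 and 7.87 fragments, raised as at FOXA1. Over the lowest background of each list the region would be at 13.7 and 13.6. Among all peaks, 15.5% in replicate 1 and 26.8% in replicate 2 had a local background more than 5% above the lowest of the list. The second region, 0.709 kb downstream of the TSS in exon 1, had 43 and 41 fragments. SOX9-AS1, a noncoding gene, also has a TSS within 1 kb of both regions.

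A distal region of SOX9 lay 30.7 kb downstream of its TSS, beyond the end of the gene and within SOX9-AS1. It stood at 8.49 and 9.74, or 9.12 ± 0.886 (SD, n = 2), the highest mean fold enrichment over the local background in this window. By fragments, 48 and 42, and over the lowest background of each list, it was below the first TSS region in both replicates. The bases at its summit are shown because they hold the letters of 2 motifs. Capitals mark the AP-1 letters on the minus strand, read as TGACTCA, and after them the SOX letters ACAATGG on the minus strand, read as CCATTGT.
SOX9 distal region, chr17:72151618-72151818, plus strand: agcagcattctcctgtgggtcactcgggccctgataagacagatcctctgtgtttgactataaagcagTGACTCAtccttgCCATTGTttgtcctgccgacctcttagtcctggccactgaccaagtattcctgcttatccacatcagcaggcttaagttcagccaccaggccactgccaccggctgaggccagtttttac
This distal region was the only one of the 29 shared regions to hold the SOX letters within 100 bp of its summit, and 1.53% of all shared regions hold them. Peaks of 1 replicate lay 10.3 kb upstream (replicate 2, 4.98) and 5.73 kb downstream (replicate 1, 4.16).

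**Figure D2:**
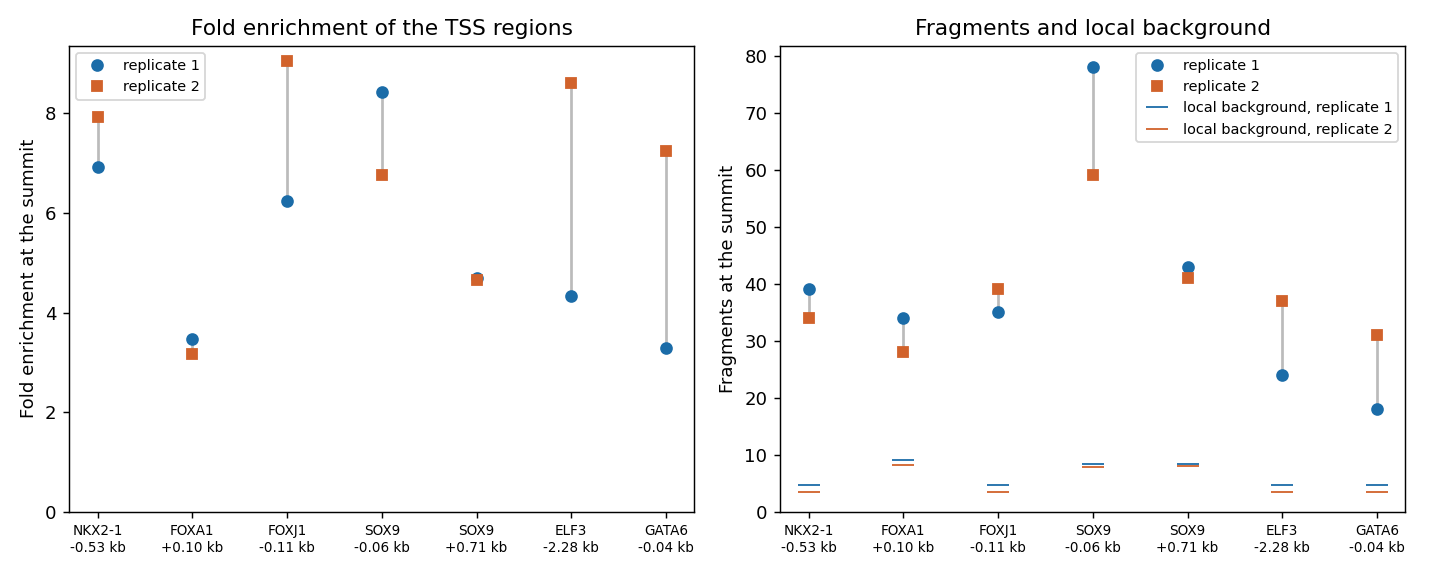
Fold enrichment (left) and fragments (right) at the summit of each shared TSS region in replicate 1 (circles) and replicate 2 (squares), with the local background as dashes and the distance from the canonical TSS under each name. SOX9 has the most fragments, 78 and 59, and FOXA1 the lowest fold enrichment in replicate 2, at 3.17, over a raised background.

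TP63 had many distal regions and no peak at a TSS. The gene spans 266 kb of chromosome 3 (plus strand, 189631389 to 189897276). It has 14 annotated transcripts at 8 TSS positions in 2 groups. The upstream group lies in exon 1 and starts the TAp63 forms, which carry the transactivation domain. The other group lies in intron 3, 158 kb downstream, and starts the ΔNp63 forms that lack this domain and that predominate in basal cells. None of the 8 positions had a peak. From the canonical TSS the nearest peak was 33.0 kb away in both replicates, and from the internal group it was 34.8 kb or farther in replicate 1 and 34.9 kb or farther in replicate 2.

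Around these starts lay 8 shared regions, all distal, more than in 85.8% of protein-coding windows. At least 8 shared distal regions and no TSS peak were found for 3.45% of protein-coding genes. That cut of 8 is the count at TP63 itself. The window is long, however, and per 100 kb the count was 1.72, against a median of 1.44 over all protein-coding windows. That density was above 57.8% of them. The strongest region ran from 189937453 to 189938097, 306 kb downstream of the canonical TSS and past the end of the gene, at 14.4 and 18.4, or 16.4 ± 2.81 (SD, n = 2). It had 82 and 94 fragments at its summit, the most in any of the 10 windows in both replicates. Its nearest protein-coding TSS is that of P3H2, 26.3 kb away, so it cannot be assigned to TP63 by position. A region in intron 1, 79.4 kb downstream of the canonical TSS, had a fold enrichment of 14.2 and 13.1, and a region 67.3 kb upstream of the gene had 12.1 and 13.6. These 3 regions stood above the other TP63 regions in both replicates, where the highest values were 7.28 and 9.52.

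The remaining shared regions of TP63 were of middling strength. One lay 42.7 kb upstream of the gene, at 7.28 and 6.80. In intron 1 a region 33.1 kb downstream of the canonical TSS had 5.54 and 7.93. Intron 4, downstream of the ΔNp63 starts, held regions at 193 kb (6.76 and 9.52) and 208 kb (5.89 and 8.16), and a further peak of replicate 2 alone at 232 kb (4.53). The last shared region, at 350 kb, lay in intron 8 of P3H2, 1.68 kb from a TSS of that gene, at 5.02 and 6.34. The bases at the summit of the strongest region hold the AP-1 letters on the plus strand, in capitals, and 0 CpG in 201 bases.
TP63 downstream region, chr3:189937735-189937935, plus strand: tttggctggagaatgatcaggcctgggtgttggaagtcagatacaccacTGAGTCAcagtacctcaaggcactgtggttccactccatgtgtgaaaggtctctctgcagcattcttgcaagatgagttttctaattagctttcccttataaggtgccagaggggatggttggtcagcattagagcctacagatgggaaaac
The 8 shared regions of TP63 had 0 to 3 CpG in the 201 bases at the summit. The TSS regions of the other factors had more, from 5 at ELF3 and 8 at SOX9 to 36 at FOXA1. Over all shared regions the median was 3 CpG away from protein-coding TSSs and 20 at them. The counts at TP63 were thus at or below the median of distal regions at large.

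**Figure D3:**
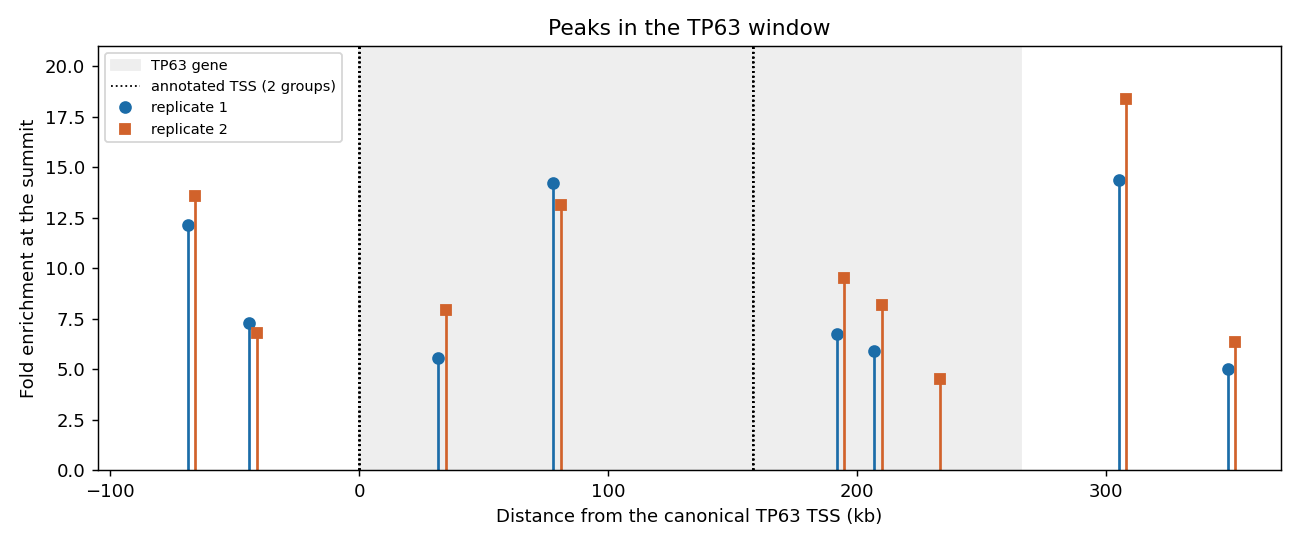
Fold enrichment of each peak in the TP63 window in replicate 1 (circles) and replicate 2 (squares), by distance from the canonical TSS in kb, drawn with a small sideways offset; the gene is shaded and dotted lines mark its annotated TSSs. The peaks at -67.3, 79.4 and 306 kb reach 12.1 or more in both replicates, and no peak stands at either group of TSSs.

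GRHL2 and ELF3 are factors of epithelial identity, and neither had a peak at its canonical TSS. GRHL2 is a grainyhead factor that maintains cell junctions (chromosome 8, plus strand, 101492439 to 101669726). None of its 5 TSS positions had a peak, and the nearest peak to the canonical TSS was 46.0 kb upstream in replicate 1 and 17.9 kb upstream in replicate 2. Its window of 377 kb held 2 shared regions, 0.530 per 100 kb, and 20.3% of protein-coding windows had a lower density. The region 46.2 kb upstream stood at 4.68 and 5.21, and a region in intron 8, 108 kb downstream, had 5.54 and 5.21. Both had fewer fragments (26 and 22, and 31 and 22) than the median shared region of either list, 37 and 37. Replicate 2 alone had stronger peaks at 32.5 kb and 18.1 kb upstream, at 7.02 and 6.12, so that most of the peaks upstream of GRHL2 are of that replicate. No sequence of this locus is shown.

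ELF3 is an ETS factor of epithelial cells (chromosome 1, plus strand, 202007945 to 202017183). Its canonical TSS, at 202010587, had no peak. The peak at the locus lay 2.28 kb upstream, from 202008163 to 202008472, 0.362 kb downstream of the outermost TSS, which starts transcript ELF3-201. Its fold enrichment stood at 4.33 and 8.61, or 6.47 ± 3.02 (SD, n = 2), the widest spread among the TSS regions. ELF3-AS1, a noncoding gene, also covers this region. With an overlap of 50% of each peak required, the region was no longer shared, because the overlap spans 46.1% of the longer peak. The canonical promoter holds 24 CpG, in a group where 21.0% of genes had a promoter peak.

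Downstream of ELF3, 24.3 kb from its canonical TSS and between genes, lay a stronger region. It stood at 10.6 and 11.6, or 11.1 ± 0.697 (SD, n = 2), and was above the TSS region in both replicates. Its bases are shown with the TEAD letters GGAATGT, on the plus strand, in capitals.
ELF3 downstream region, chr1:202034823-202035023, plus strand: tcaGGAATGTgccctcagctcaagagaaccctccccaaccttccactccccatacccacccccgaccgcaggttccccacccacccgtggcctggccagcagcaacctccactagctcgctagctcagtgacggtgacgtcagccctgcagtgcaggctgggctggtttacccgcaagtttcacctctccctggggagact
A weaker shared region lay 95.2 kb downstream, at 3.47 and 5.66. The other 3 shared regions of the window were promoters of TIMM17A (11.4 and 15.4), RNPEP (6.76 and 9.97) and LMOD1, and with them the density of the ELF3 window was 2.87 per 100 kb, above 82.6% of protein-coding windows.

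**Figure D4:**
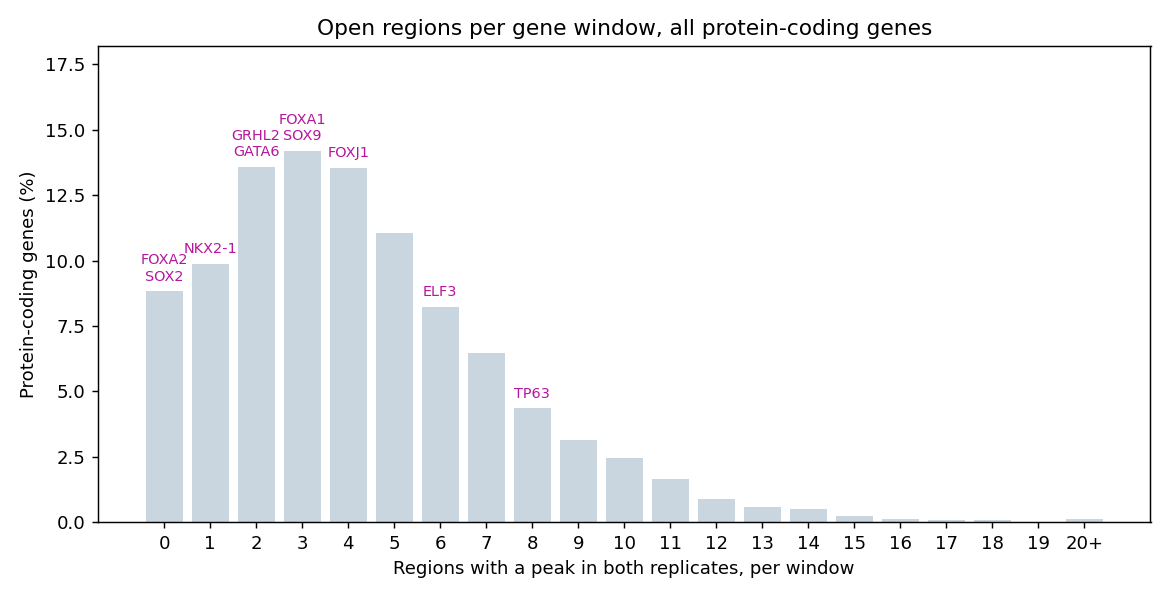
Share of protein-coding genes (y, percent) by number of shared regions in a window from 100 kb upstream to 100 kb downstream of the gene (x), with each factor named above its bar. The median over all genes is 4, and 7 of the 10 factors have fewer, as do 46.5% of all protein-coding genes.

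Over the 10 windows the median was 2.5 shared regions, against 4 for all protein-coding genes (quartiles 2 and 6). With replicate 2 alone the median of the 10 windows was 4, and with replicate 1 alone it was 3.5. These cannot be set against the value for all genes, which counts shared regions and was not computed for a single replicate. Of the 29 shared regions, 7 lay at a TSS of the factor itself, 6 at a TSS of a protein-coding neighbour, 6 inside the factor, 1 inside a neighbour and 9 between protein-coding genes. The 7 TSS regions had a median fold enrichment of 4.71 in replicate 1 and 7.25 in replicate 2. At the canonical TSS, with the highest peak of each gene, the median was 6.24 and 7.25 for the 5 factors with a peak there and 7.97 and 9.06 for all protein-coding genes with one. Distal regions of the factors that were at no neighbour's TSS had a median of 6.32 and 7.70. By fragments the medians were 35 and 37 for the 7 TSS regions and 39.5 and 33 for these distal regions. By that measure the distal regions were higher in replicate 1 and lower in replicate 2. Between the replicates, the fold enrichment was higher in replicate 2 for 21 of the 29 regions, as it was for 74.7% of all shared regions, whereas 15 of the 29 had more fragments in replicate 1. The windows differ in length and in gene density, and these medians are descriptions without a test.

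CpG content followed the split of the TSS calls in part. The 5 factors with a peak at the canonical TSS had 61 to 112 CpG within 500 bp of it. Among the 5 without such a peak, TP63 had 14, ELF3 24 and GRHL2 48, and in their CpG groups 6.49%, 21.0% and 55.9% of genes had a promoter peak in both replicates. FOXA2 and SOX2 were the exceptions, with 81 and 64 CpG in groups where 71.8% and 68.2% had one. These were also the only factors without a shared region in their windows.

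**Figure D5:**
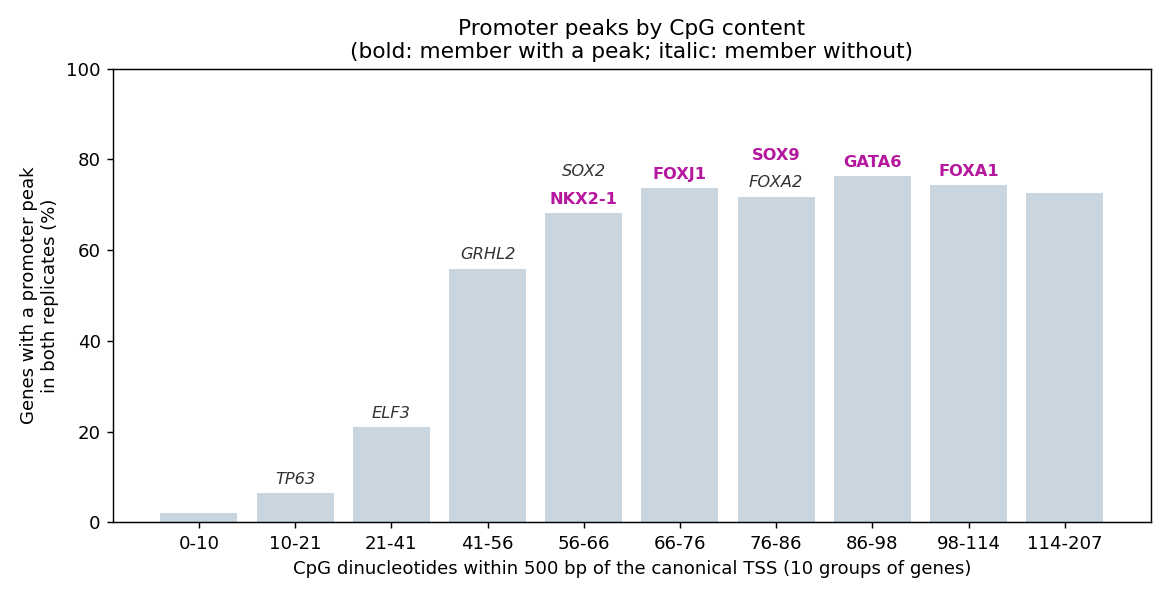
Share of protein-coding genes with a promoter peak in both replicates (y, percent) in 10 groups of equal size by CpG count within 500 bp of the canonical TSS (x), with each factor above the bar of its group, in bold where its canonical TSS had a peak and in italics where it had none. SOX2 and FOXA2 lack a peak in groups where 68.2% and 71.8% of genes have one.

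Short motif letters were searched on both strands within 100 bp of the shared summits, as a description of the reference sequence. The AP-1 letters TGAGTCA, whose reverse complement is TGACTCA, were in 9 of the 29 regions, against 20.5% of all shared regions. All 9 were among the 16 regions away from every protein-coding TSS, or 56.3% (95% Wilson interval 33.2 to 76.9), against 34.7% of the 13108 such regions in all. That background lies within the interval, so the share was not told apart from it. The interval takes the 16 regions as independent, although 8 of them lie in the TP63 window, and it is not a test. Of the 13 regions at protein-coding TSSs 0 held them, against 5.34% of the 12258 such regions in all. By locus they were in 5 of 8 such regions of TP63, in 1 of 2 of ELF3, in 1 of 2 of GRHL2, in 0 of 2 of FOXA1, and in the single regions of SOX9 and GATA6, with centres 14 to 77 bp from the summit. The sites outside GRHL2 are printed with 10 bases to either side on the strand that reads TGAGTCA, with those letters in capitals, so that the flanks can be compared.
TP63, 42.7 kb upstream, chr3:189588721-189588747, minus strand: tttatcatgcTGAGTCAcagaagaaat
TP63, 33.1 kb downstream, chr3:189664534-189664560, minus strand: tcttgaattcTGAGTCActgttttctt
TP63, 193 kb downstream, chr3:189824787-189824813, plus strand: tccagttttaTGAGTCAgtgctggccc
TP63, 208 kb downstream, chr3:189839815-189839841, plus strand: agccttgaaaTGAGTCAcacaaggttt
TP63, 306 kb downstream, chr3:189937774-189937800, plus strand: gatacaccacTGAGTCAcagtacctca
SOX9, 30.7 kb downstream, chr17:72151676-72151702, minus strand: atggcaaggaTGAGTCActgctttata
ELF3, 95.2 kb downstream, chr1:202105732-202105758, minus strand: cacaggagtcTGAGTCAgctctcgggg
GATA6, 54.3 kb downstream, chr18:22223810-22223836, minus strand: ggccggcaccTGAGTCAcccacttgtc
The letters searched for the factors' own families were few here, as they were over all shared regions. None were searched for TP63, and variants of the fixed letters were not counted. The forkhead letters TGTTTAC were in 0 of the 29 regions and in 2.24% of all shared regions. AGATAAG, bound by GATA factors, was likewise in 0 (1.55% of all). The grainyhead letters AACCGGTT were in 0 (0.0867%) and the NKX2 letters CACTTGA in 0 (1.81%). The ETS letters AGGAAGT were in 1 region (5.53%). The TEAD letters GGAATGT were in 4 (6.48%), 3 of them in the ELF3 window. By class they were in 1 of the 16 regions away from protein-coding TSSs (10.6% of all such regions) and in 3 of the 13 at them (2.05%). Only the SOX9 distal region held the letters of 2 motifs, and these did not overlap. A lack of these letters in the windows says nothing of binding by the factors.

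Other factors of the lung were read in the same way for comparison. Of 30 further factors of lung and airway epithelium, 16 had a peak at the canonical TSS in both replicates, against 5 of the 10 factors above and 52.2% of all protein-coding genes. KLF5 (12.7 in replicate 1 and 13.8 in replicate 2) and GRHL1 (8.84 and 12.5) had a peak, and OVOL1, OVOL2, GRHL3, EHF, ELF5 and SPDEF had none in either replicate. The grainyhead genes thus split, with GRHL1 open and GRHL2 and GRHL3 without a peak. Among the regulators of multiciliated cells in this list, GMNC (11.3 and 10.9), MCIDAS (8.66 and 9.91), RFX3 (9.54 and 8.90), RFX2 (5.89 and 7.70) and MYB (5.37 and 6.94) had a peak in both replicates, and FOXN4 had none in either. These genes were drawn from the list by role and were not a list of their own. They had 60 to 116 CpG within 500 bp of the canonical TSS, in CpG groups where 68.2% to 74.2% of all protein-coding genes had a promoter peak in both replicates. Of 20 factors of lung mesenchyme and of epithelial to mesenchymal transition, 10 had a peak at the canonical TSS in both replicates. Among them were TBX3 (13.7 and 12.6), SNAI2 (8.49 and 6.18) and TWIST1 (7.64 and 7.51). FOXF1, FOXF2, TBX4, TBX5, TCF21, GLI2, HAND2, MEOX2 and ZEB2 had none there in either replicate, and SNAI1 had one in replicate 2 alone (5.21). The shares of the 3 lists were all near that of protein-coding genes at large, and they were not tested against each other.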

How the data were processed

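Both replicates are ATAC-seq libraries of untreated B2B cells. The authors mapped reads to hg38 with Bowtie2 2.4.4, took out duplicates by their own code, and ran MACS2 2.2.7.1 on each replicate with all remaining reads (versions from the submitters' processing notes). The deposited lists give a fold enrichment, a −log10 p, a −log10 q and a score per peak, and the score was not used. The Tn5 shift, the handling of mitochondrial reads and the q limit are not given in the sources used here. The depth is unknown, because the lists hold no read totals.

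Only peaks of the autosomes, X and Y were used, 28735 in replicate 1 and 36162 in replicate 2. Peaks that overlapped by at least 1 bp were merged. Gene spans, TSSs and the canonical transcript came from GENCODE 44, and sequences from the hg38 reference. A TSS had a peak where a peak overlapped 1 kb to either side. Distal means farther than that from every TSS of the gene. Fragments at the summit and the local background were solved from the fold enrichment and −log10 p as MACS2 defines them, within 0.01 of the −log10 p, for 99.7% and 99.8% of peaks. The solution, the merging and the motif search were tested on simulated data. Intervals cover counting error only.

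The genes, lists and motifs were chosen with earlier results of these data known. Named were the 10 factors, the strongest shared region and the one nearest to a TSS in each window, protein-coding neighbours with a shared region at a TSS, and members of fixed lists. Sequences were shown for a TSS region and for the strongest distal region, without chromosome 8, annotated UTRs, stretches under 60 bases and promoters of neighbours. Some listed items are not reported here. The AP-1 sites printed with their flanks were added after the values were seen. Other settings tried were each replicate alone, a −log10 q of 5 or more, an overlap of 50%, TSS windows of 500 bp and 3 kb, basic transcripts and windows of 50 kb. Python 3.11.15, numpy 2.4.6, pandas 2.3.3, scipy 1.17.1, pysam 0.24.0 and matplotlib 3.10.9 were used.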

Additional observations from a re-analysis of the deposited data

How the results depend on the processing

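Of 121 values under the alternatives, 41 were of the main counts, where 37 stayed within 1.5 times the reported value and 4 moved, and 80 were of single genes, where 71 stayed and 9 moved. Reversals were not scored, and the calls of a TSS peak that changed are named below. The set of factors with a TSS peak in both replicates was the same with each replicate alone, with TSS windows of 500 bp and 3 kb and with basic transcripts. It lost GATA6 at a −log10 q of at least 5, leaving 5 of the 6, and lost FOXA1 and ELF3 with an overlap of 50% of each peak, leaving 4. ELF3 counted as open at its canonical TSS with a window of 3 kb, where the count was 6. Windows of 50 kb held 14 distal shared regions, against 22, by construction. With 1 replicate left out, the median number of regions per window was 3.5 to 4 (against 2.5, and 4 without replicate 1), the windows held 35 to 38 regions, and the pairs of a factor and a replicate with a TSS peak numbered 6 instead of 12, by construction. The window of FOXA1 held 6 regions in replicate 1 alone, those of GRHL2 4, NKX2-1 2 and FOXA2 1 in replicate 2 alone, GATA6 1 at a −log10 q of at least 5, ELF3 3 with an overlap of 50% and with windows of 50 kb, and FOXJ1 1 with windows of 50 kb. No paired analysis was possible because only 1 condition was measured. Depth limits the absence of a peak at FOXA2, SOX2, TP63 and GRHL2.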

Other observations

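Other protein-coding genes had their canonical TSS in the windows of NKX2-1, FOXA1, FOXJ1 and ELF3. Of these 11 neighbours 7 had a peak there in both replicates, against 52.2% of all protein-coding genes. The peaks of SFTA3 and TTC6, among the 7, are those counted at NKX2-1 and FOXA1. TIMM17A, a subunit of the mitochondrial import machinery, had a fold enrichment of 11.4 in replicate 1 and 15.4 in replicate 2, and SRP68, a subunit of the signal recognition particle, had 9.01 and 12.2, both above the TSS regions of ELF3 and FOXJ1 in the same windows in either replicate. NKX2-8, a homeobox gene that neighbours NKX2-1, and GALR2, a galanin receptor in the FOXJ1 window, had no peak within 1 kb of the canonical TSS in either replicate. EXOC7, of the exocyst, had a peak in replicate 2 alone, at 5.21. The windows of FOXA2, SOX2, SOX9, TP63, GRHL2 and GATA6 held no canonical TSS of another protein-coding gene.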
